A study of Mus musculus with 6 samples.

Results

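The genes of the AP-1 dimers and of their small Maf relatives were followed across 6 RNA-seq libraries of a mouse thymoma line. The 10 members were Fos, Fosb, Fosl1 and Fosl2 of the Fos family, Jun, Junb and Jund of the Jun family, Batf3, and the small Maf genes Maff and Mafk. They were taken by gene symbol from the 25001 loci in the deposited files, of which 22601 carried a symbol, and no member's symbol occurred on more than 1 locus. The 6 libraries, 1 per condition, came from 427.1.86 thymoma cells (427 cells) at passage 4-10 in DMEM with 10% FBS, and the study asked what the released intracellular domain (EICD) of the membrane protease epithin/PRSS14 does to transcription. A pair of libraries came from wild type cells stably carrying the empty pSUPER vector, treated with DMSO or with the phorbol ester PMA (1 µM for 2 h, following 2 h of serum deprivation). Another pair, labelled SP2bKD here, came from cells with a knockdown of SPPL2b, an intramembrane protease, given DMSO or PMA in the same way. The last pair came from knockdown cells transfected with a GFP vector (the GFP library) or with the GFP vector and Flag-tagged EICD (the EICD library), and GFP-positive cells were sorted. The sample labels name an siRNA against SPPL2b in the 4 knockdown libraries, whereas the study's methods describe a stable shRNA and a single clone, SP2bKD-10, for the transfected cells. PMA is an activator of protein kinase C and an inducer of the shedding that precedes EICD release.

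Proteins of these families carry a basic region and a leucine zipper and bind DNA only as dimers. Fos proteins must pair with a Jun protein to form AP-1, Jun proteins can also pair with each other, and small Maf proteins, which lack an activation domain, pair with each other or with partners such as Nfe2l1, Nfe2l2 and Bach1. Many of these genes are immediate-early genes, transcribed without new protein synthesis after serum, phorbol ester or stress, and their mRNAs are short-lived. In epithelial cells AP-1 acts on protease, adhesion and differentiation genes.

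The promoters are shown because Fos, Fosb, Jun, Junb and Maff are known for fast control at the promoter and because Fos and Fosb had like patterns across the libraries. RefSeq windows from 250 bases before to 50 bases after the start site were matched for 9 of the 10 members (all but Fosl1) on GRCm38.p6, and the 140 bases before the start site are printed for the 6 members with one of 3 motifs. Capitals mark the half-site TGACG of the cAMP response element in Fos, Fosb, Junb and Mafk, its full palindrome TGACGTCA in Maff and TGACATCA, the element through which Jun proteins are known to act on the Jun promoter, in Jun.
Fos, chr12:85473750-85473889, plus strand: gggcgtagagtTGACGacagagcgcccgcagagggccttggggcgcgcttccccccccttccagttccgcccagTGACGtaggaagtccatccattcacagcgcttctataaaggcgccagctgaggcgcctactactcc
Fosb, chr7:19310046-19310185, minus strand: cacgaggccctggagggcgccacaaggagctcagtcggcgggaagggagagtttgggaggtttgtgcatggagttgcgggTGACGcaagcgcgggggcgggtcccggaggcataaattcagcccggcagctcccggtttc
Jun, chr4:95052223-95052362, minus strand: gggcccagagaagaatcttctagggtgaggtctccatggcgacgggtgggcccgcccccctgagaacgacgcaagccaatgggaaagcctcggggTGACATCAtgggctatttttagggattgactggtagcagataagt
Junb, chr8:84978749-84978888, minus strand: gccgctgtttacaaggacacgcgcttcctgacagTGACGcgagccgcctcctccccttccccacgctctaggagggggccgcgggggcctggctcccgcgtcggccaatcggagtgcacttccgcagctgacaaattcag
Maff, chr15:79347380-79347519, plus strand: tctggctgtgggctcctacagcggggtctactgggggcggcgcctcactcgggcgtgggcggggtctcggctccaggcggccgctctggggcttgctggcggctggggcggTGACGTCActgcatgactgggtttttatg
Mafk, chr5:139791396-139791535, plus strand: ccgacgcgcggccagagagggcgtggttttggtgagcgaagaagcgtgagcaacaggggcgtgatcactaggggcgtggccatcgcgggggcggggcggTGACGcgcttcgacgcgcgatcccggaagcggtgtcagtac

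The half-site TGACG, searched on both strands, occurred in the windows of 5 of the 9 matched members (Fos, Fosb, Junb, Maff and Mafk) and in 20.8% of all 32851 promoter windows of 300 bases. In Fos the sites began 129 and 66 bases before the start site, and a TATAAA began 33 bases before it. The palindrome TGACGTCA, which contains the half-site, was found in Maff and in 1.79% of windows. TGACATCA was found in Jun, in another of the 3 Maff windows and in 3.62% of windows. The classical AP-1 site TGACTCA, present in 5.20% of windows, and the CArG box to which serum response factor binds, present in 1.63%, were found in none of the members' windows. Sites more than 250 bases before the start site were outside the windows and could not be found, so these genes may carry such sites further upstream. A match is a string of letters and was not tested for binding.

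Depth was estimated from the steps of the lowest FPKM at 25100000 to 28800000 fragments per library, and at 24500000 to 29900000 when each library was scaled alone. The targeted gene Sppl2b did not have a lower value in the libraries labelled SP2bKD: FPKM values were 9.90 and 6.86 in 427 cells with DMSO and PMA, 13.4 and 9.37 in the SP2bKD libraries with DMSO and PMA, and 11.4 and 13.2 in the GFP and EICD libraries. Over 2204 bases it overlaps Lsm7, which lies on the other strand. The study itself presented its knockdown clones with real-time PCR of SPPL2b mRNA and reported less PMA-induced EICD in them. Why the FPKM of Sppl2b was not lower in the sequenced libraries was not tested. The knockdown is therefore named by its label throughout, and a direction between the lines is one between libraries with those labels. Of 10 epithelial markers, 8 reached 1 FPKM in all 6 libraries, led by Krt5, whereas of 9 T cell and blood cell markers only Rag1 did, and Cd3e and Cd4 were listed at 0 in each library. The 10 largest loci held 85.6% to 94.2% of the FPKM sum of a library.

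FPKM (fragments per kilobase of transcript, scaled to the depth of the library) takes transcript length into account, so levels can be set side by side between genes. The levels of the members spanned a wide range and their order changed with the condition, as the plot of FPKM by library shows. In 427 cells with DMSO, Junb (46.9 FPKM) and Fosl2 (45.3 FPKM) led, followed by Mafk, Jund and Jun between 15.6 and 25.4, Maff and Fosl1 at 6.81 and 4.71, and Fos and Fosb at 1.11 and 0.463. With PMA, Junb (95.1 FPKM) and Fosl1 (73.8 FPKM) led. In the GFP library the order was headed by Fos (148 FPKM), Fosb (105.3 FPKM) and Junb (103 FPKM), and in the EICD library by Fos (244 FPKM), Junb (178 FPKM) and Fosb (168 FPKM). In bulk RNA, fewer cells with a transcript and less transcript per cell cannot be told apart. Neighbours such as Junb and Fosl2 in untreated 427 cells, or Fosb and Junb in the GFP library, cannot be ordered, since there was no replicate from which to take a spread.

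**Figure D1:**
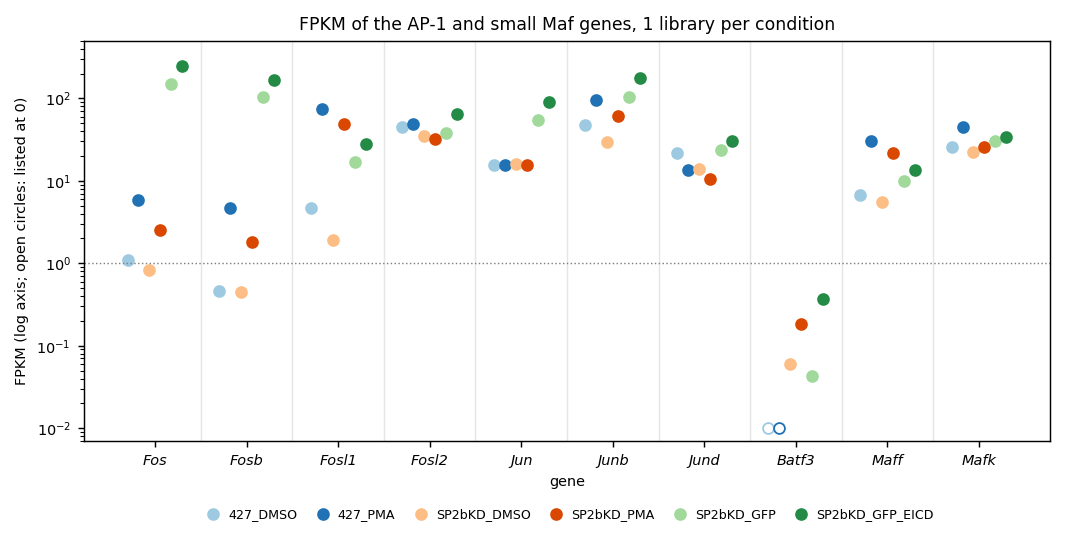
FPKM (log axis) of each of the 10 genes in the 6 libraries, 1 point per library, with open circles for values listed at 0 and a dotted line at an FPKM of 1. Fos and Fosb were lowest in the DMSO libraries and highest in the EICD library, while Jun had nearly the same level in the 4 DMSO and PMA libraries.

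Among the Fos family, Fos (chr12:85473890-85477273, plus strand of GRCm38), the founding immediate-early gene, had 1.11 and 5.93 FPKM in 427 cells with DMSO and PMA, 0.823 and 2.54 in the SP2bKD libraries with DMSO and PMA, and 148 and 244 in the GFP and EICD libraries. For Fosb (chr7:19302696-19310056, minus strand), its close relative, the same 6 values were 0.463, 4.63, 0.445, 1.83, 105.3 and 168. Both genes were low in the 4 DMSO and PMA libraries and high in the sorted pair, and for each of them the lowest value of the sorted pair was above the highest of the other 4. The values of the DMSO libraries rested on few fragments, at most an estimated 61.5 for Fos and 46.1 for Fosb.

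Fosl1 (chr19:5447703-5455945, plus strand) encodes Fra-1, a Fos protein without the strong activation domain of Fos that is known from invasive carcinoma cells. Its FPKM was 4.71 with DMSO and 73.8 with PMA in 427 cells, 1.92 and 49.5 in the SP2bKD libraries, 16.7 in the GFP library and 27.8 in the EICD library. Fosl1 was thus highest in the PMA libraries, intermediate in the sorted cells and lowest with DMSO. In GENCODE M21, 57.2% of its exon bases (1163 of 2033) are shared with exons of Ccdc85b on the opposite strand, of which 94 bases lie in both loci as the files delimit them, and reads in shared bases cannot be told apart. The FPKM of Ccdc85b, 8.92 to 18.7, was not higher with PMA in either line. Fosl2 (chr5:32135801-32157842, plus strand) encodes Fra-2 and had the narrowest range of the Fos family, at 45.3, 49.0, 35.4, 32.2, 37.7 and 65.1 FPKM in the same order of libraries. Its highest value was that of the EICD library.

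The leading gene of the Fos family differed between conditions and that of the Jun family did not, as the plot of stacked FPKM shows. Fosl2 held 87.8% of the summed Fos family FPKM in 427 cells with DMSO and 91.7% in the SP2bKD library with DMSO. With PMA the largest share was that of Fosl1, at 55.3% and 57.5%. In the GFP library it was that of Fos, at 48.2%, with Fosb at 34.2%, and the shares in the EICD library were 48.3% and 33.2%. The summed Fos family FPKM was 51.5, 133 and 308 in 427 cells with DMSO, with PMA and in the GFP library, and 505 with EICD. Divided by the summed Jun family FPKM it was 0.610 and 0.647 in the DMSO libraries, 1.07 and 0.988 in the PMA libraries, and 1.69 in both sorted libraries. The shares and the ratio are within a library and do not depend on how libraries are scaled to each other.

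**Figure D2:**
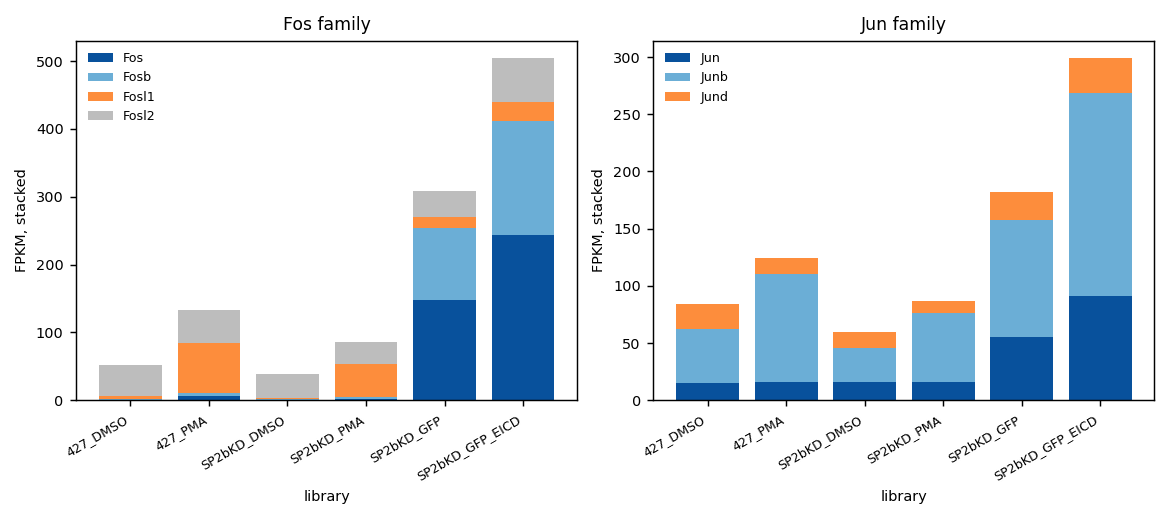
FPKM stacked by gene for the Fos family (left) and the Jun family (right) in each of the 6 libraries. Fosl2 made up most of the Fos bar with DMSO, Fosl1 with PMA, and Fos and Fosb in the sorted cells, whereas Junb held the largest part of the Jun bar in each library.

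Among the Jun family, Junb (chr8:84976909-84978748, minus strand), an immediate-early gene and a weaker activator than Jun, held 49.8% to 76.6% of the summed FPKM. Its 6 values were 46.9, 95.1, 29.7, 61.1, 103 and 178 FPKM, lowest with DMSO and highest in the sorted pair. Jun (chr4:95049034-95052222, minus strand), the main activating partner of Fos, stood at 15.6, 15.7, 16.1 and 15.6 FPKM in the 4 DMSO and PMA libraries, 55.3 in the GFP library and 90.8 in the EICD library. Its level was thus nearly the same in the first 4 libraries and higher in the sorted pair. Jund (chr8:70697739-70700616, plus strand), usually the constitutive member, had 22.0, 13.4, 13.8, 10.4, 23.8 and 30.7 FPKM. Jund shares 543 bases with the antisense locus Gm11175, whose values of 56.9, 30.6, 27.6, 23.5, 60.2 and 74.1 FPKM had the same lowest and highest library, and the reads of the pair cannot be told apart because no strand-specific counting is stated.

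Of the small Maf genes, Maff (chr15:79347541-79359072, plus strand), the stress- and growth-factor-inducible member, had 6.81 and 30.3 FPKM in 427 cells with DMSO and PMA, 5.50 and 22.0 in the SP2bKD libraries, and 10.04 and 13.6 in the GFP and EICD libraries. It was highest in the PMA libraries, which did not hold for Fos, Fosb, Jun or Junb. Mafk (chr5:139791513-139802653, plus strand) ranged from 22.2 FPKM in the SP2bKD library with DMSO to 44.5 FPKM in 427 cells with PMA, and shares 169 bases with Tmem184a on the opposite strand. Mafg, the third small Maf gene, held 54.1% to 72.6% of the summed small Maf FPKM. Batf3 (chr1:191097847-191108945, plus strand), a Jun partner known from dendritic cells, was listed at 0 in both 427 libraries and at 0.0428 to 0.373 FPKM in the other libraries, at most an estimated 11 fragments. It did not reach an FPKM of 1 in any library and was left out of the counts below, which cover the other 9 members.

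To compare conditions, log2 differences were formed from FPKM + 0.01, and a locus was counted as higher or lower past 2-fold where the larger of the compared values was at least 1 FPKM. A locus that reached 1 FPKM in only 1 of the libraries compared could be counted in that direction only. This held for Fosb with PMA in 427 cells, and for Fos and Fosb in the SP2bKD libraries with PMA and in the GFP library against DMSO. There is no replicate check behind any of these differences, so no p-value is given. The 95% intervals below, exact binomial intervals from estimated fragments, cover counting error only. Members and lists were chosen with earlier results of these data known, so their counts beside the share of all loci are description only. With PMA in 427 cells, 5 of the 9 members were more than 2-fold higher, where 3.91% of the 10643 loci tested were, and none was more than 2-fold lower, where 4.67% were. They were Fosl1 (15.7-fold), Fosb (9.80-fold), Fos (5.30-fold), Maff (4.44-fold) and Junb (2.03-fold). Junb lay just past 2-fold, at a log2 difference of 1.02 (counting interval 0.95 to 1.09), and at 0.77 when each library was scaled to the same FPKM sum. Mafk was next, at 1.75-fold. Jun and Fosl2 differed by 0.01 and 0.12 on the log2 scale, small enough to turn negative when libraries were scaled to the same sum, and Jund by -0.72 (-0.87 to -0.57). The median log2 difference was 1.02 over the 9 members and -0.12 over all loci tested.

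In the SP2bKD libraries the same 5 genes were more than 2-fold higher with PMA, where 3.51% of 10624 loci were, and no member was lower, where 5.69% were. Fosl1 was 25.7-fold higher, Fosb 4.04-fold, Maff 4.00-fold, Fos 3.06-fold and Junb 2.06-fold. Fosl1 ranked 28th of 10643 loci in 427 cells and 15th of 10624 in the SP2bKD libraries by its log2 difference. Mafk, at a log2 difference of 0.21 (0.12 to 0.30), stayed below 1.5-fold, and Jund was again below 0, at -0.41 (-0.59 to -0.24). The median over the 9 members was 1.04, and over all loci -0.15.

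**Figure D3:**
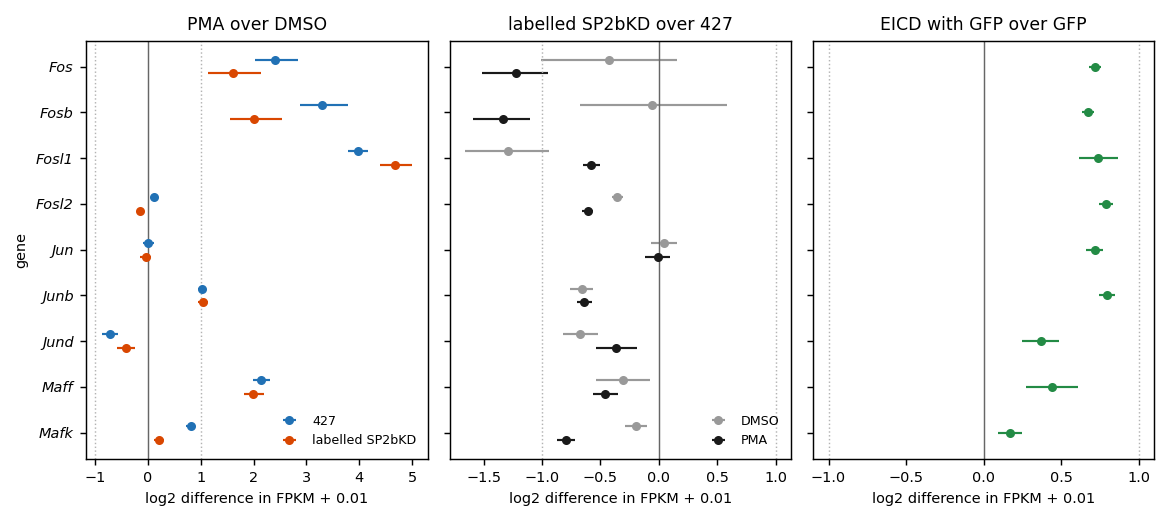
Log2 difference in FPKM + 0.01 for the 9 genes that reach an FPKM of 1, with bars for 95% counting intervals (counting error only, no replicates) and dotted lines at 2-fold. Left, PMA over DMSO. Middle, libraries labelled SP2bKD over 427, in which most points lie below 0 with FPKM as deposited. When each library is scaled to the same FPKM sum, the members that still reach the minimum lie above 0 there. Those more than 2-fold lower with FPKM as deposited no longer reach it. Right, EICD with GFP over GFP, in which Fos, Fosb, Fosl1, Fosl2, Jun and Junb lie between 0.67 and 0.79.

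The PMA difference in 427 cells minus that in the SP2bKD libraries was more than 1 on the log2 scale for Fosb alone, at 1.28, where 2.09% of 10845 loci lay that high and 1.18% as far in the other direction. Fosb started from like levels (0.463 and 0.445 FPKM) and reached 4.63 FPKM in 427 cells and 1.83 FPKM in the SP2bKD library. Fos had a difference of 0.79 and Mafk of 0.60. Thus 3 of the 9 members were past 1.5-fold in this direction, a size chosen after the values were seen, where 5.33% of loci were. In the other direction 1 member was past 1.5-fold, for which the share of loci was not counted. This was Fosl1, at -0.72, from a DMSO level that was lower in the SP2bKD library (1.92 against 4.71 FPKM). Junb, at -0.02, had nearly the same PMA ratio in both lines. None of these differences between lines was tested, since each rests on 4 single libraries.

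Between the lines themselves, the members mostly had lower FPKM as deposited in the libraries labelled SP2bKD. When each library was scaled to the same FPKM sum, the members that still reached the minimum had higher values there. Fos, Fosl1 and Maff with DMSO, and Fos and Fosb with PMA, no longer reached it. Among them were all members more than 2-fold lower with FPKM as deposited, so the minimum took out the lowest members. The 10 largest loci held 87.3% to 94.2% of the FPKM sum in these libraries. With DMSO, Fosl1 was the only one of 8 members past 2-fold, at a log2 difference of -1.29 (-1.66 to -0.94), where 2.76% of 10706 loci were that much lower and 3.11% that much higher. Junb and Jund had log2 differences of -0.66 and -0.67, and Jun of 0.04. With PMA, all 9 members had log2 differences below 0 with FPKM as deposited, where 46.5% of loci did, but each of the 7 members that still reached the minimum lay above 0 when every library was scaled to the same FPKM sum, which moved the median of all loci by 0.96 (DMSO) and 1.24 (PMA) on the log2 scale. Scaling to the sum without the largest loci, added after seeing the data, moved it by 0.00 and 0.09 and left 1 and 2 members more than 2-fold lower. Setting the median log2 ratio to 0 and upper quartile scaling moved it by -0.05 and -0.06 with DMSO and by -0.02 each with PMA, and left the same counts. Fosb (-1.34, interval -1.59 to -1.10) and Fos (-1.22, -1.51 to -0.95) were the 2 members past 2-fold with PMA, where 2.75% of 10518 loci were lower and 2.19% higher. Past 1.5-fold, again a size chosen after the values were seen, there were 5 lower members (Fos, Fosb, Fosl2, Junb and Mafk), against 6.22% of loci. Relative to the other loci, whose order, for a given set of loci, does not depend on the scaling of whole libraries, Mafk stood above 3.93% of loci, Junb above 5.43%, Fosl2 above 5.79% and Fosl1 above 6.33%, while Jun stood above 45.5%. The libraries of the PMA comparisons and of these comparisons are the same 4, so these values are no further evidence for those above.

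With EICD, all 9 members were higher than in the GFP library, by log2 differences of 0.17 to 0.79, where 58.2% of the 10687 loci tested were above 0, although Mafk turned to -0.01 when each library was scaled to the same FPKM sum, which moved the median of all loci by -0.18. No member was more than 2-fold higher, where 3.55% of loci were, or more than 2-fold lower, where 0.524% were. At 1.5-fold, a size chosen after the values were seen, 6 of 9 members were higher and 10.4% of loci were, and with each library scaled to the same FPKM sum 2 of 9 (Junb and Fosl2) and 3.32% of 8464 loci were. With FPKM as deposited the 6 were Junb (1.73-fold), Fosl2 (1.73-fold), Fosl1 (1.67-fold), Fos (1.64-fold), Jun (1.64-fold) and Fosb (1.59-fold). Their counting intervals overlapped, as for Fos (0.68 to 0.76) and Jun (0.66 to 0.77), except that the interval of Fosb (0.64 to 0.71) ended below those of Junb (0.74 to 0.84) and Fosl2 (0.74 to 0.83). The 6 were picked as the members past 1.5-fold and none was past 2-fold, so the likeness of their factors follows in part from that choice. Their levels in the GFP library ran from 16.7 FPKM (Fosl1) to 148 FPKM (Fos). Maff, Jund and Mafk followed with 0.44 (0.28 to 0.61), 0.37 (0.25 to 0.49) and 0.17 (0.09 to 0.25). The median was 0.72 over the 9 members and 0.07 over all loci. The summed FPKM of the epithelial markers was 15156 with GFP alone and 10974 with EICD, again mostly Krt5, with 1 of 8 markers past 2-fold (Krt8, lower) and a median log2 difference of -0.26, and that of the T cell and blood cell markers was 2.66 and 2.52, with Cd3e and Cd4 at 0. Their part in the EICD difference was not tested.

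**Figure D4:**
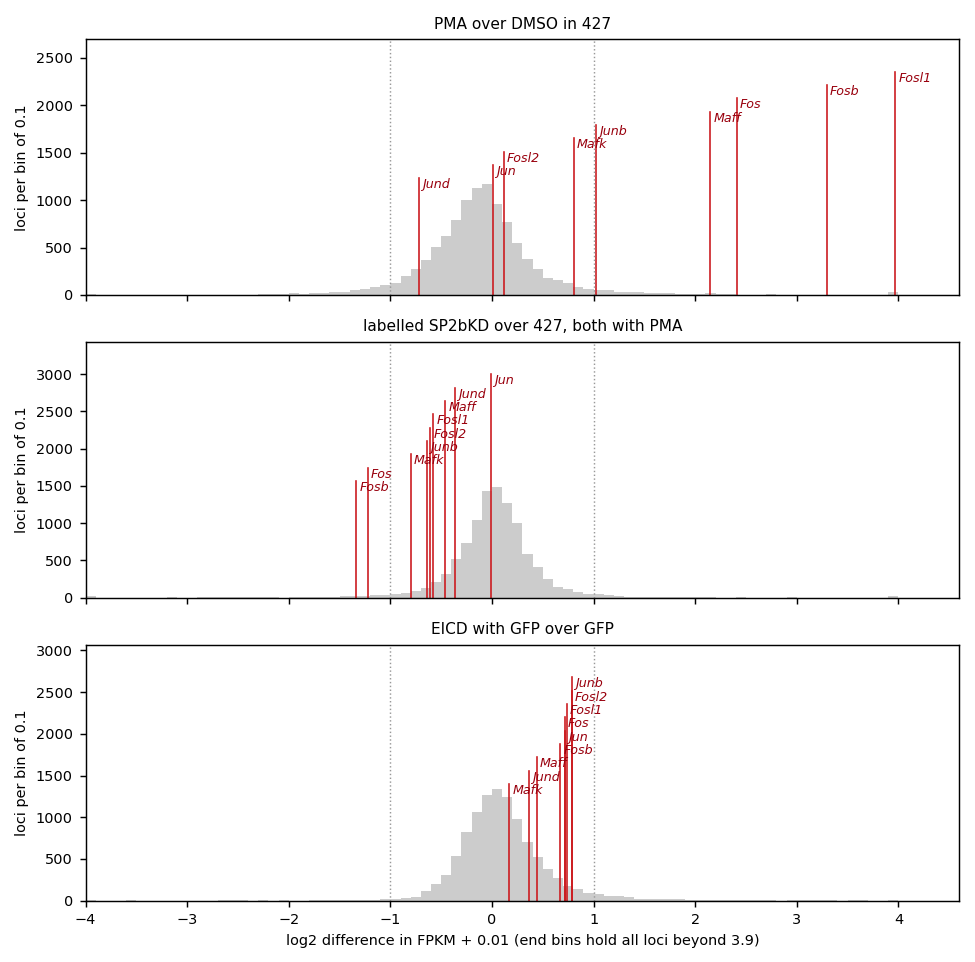
Number of loci per bin of 0.1 in log2 difference (grey) with the 9 members as red lines, for PMA over DMSO in 427 cells, for the library labelled SP2bKD over 427 with PMA, and for EICD with GFP over GFP; dotted lines mark 2-fold. The members spread from -0.72 to 3.97 with PMA in the top panel and crowd between 0.17 and 0.79 with EICD. In the middle panel they lie between -1.34 and -0.01 with FPKM as deposited. Scaled to the same FPKM sum they lie above 0 there, except Fos and Fosb, which no longer reach the minimum.

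For 8 of the 9 members (all but Fosl2), the GFP library differed more from the DMSO library of the same label than the sorted libraries differed from each other. Fosb was 231-fold (log2 interval 7.45 to 8.34) and Fos 178-fold (7.07 to 7.95) higher in the GFP library, the 5th and 7th largest differences among 10687 loci. Their DMSO values rested on an estimated 44 and 45 fragments. Over all settings their log2 differences ran from 6.20 to 7.93 and from 6.36 to 7.55, so the 2 genes cannot be ordered. Fosl1 was 8.67-fold, Junb 3.46-fold and Jun 3.44-fold higher, so that 5 of the 9 members were past 2-fold, where 3.56% of loci were, and none was lower, where 4.14% were. Fosl2 differed by 0.09 on the log2 scale (0.04 to 0.14), Mafk by 0.45, Jund by 0.78 and Maff by 0.87. Transfection, sorting and serum, of which the labels give 2 h of deprivation for the DMSO library only, differed together here, and their parts cannot be told apart. The summed FPKM of the epithelial markers was 6898 in the DMSO library and 15156 in the GFP library, but this sum was carried by Krt5 (4246 and 10705 FPKM) and Krt14 (1785 and 3820 FPKM). Of the 8 markers above the minimum, 2 were more than 2-fold higher and 1 lower (Krt8, 311 and 143 FPKM), with a median log2 difference of 0.13, and their part in the difference was not tested.

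Of 15 measured genes for other AP-1 and Maf partners, 10 reached the minimum in each of the PMA and EICD comparisons. With PMA in 427 cells, 2 were more than 2-fold higher, where 3.91% of all loci tested were. They were Atf3 (2.74 to 9.91 FPKM), a stress-induced repressor, and Bach2 (1.55 to 3.73 FPKM), a small Maf partner. With EICD, 3 were more than 2-fold higher, where 3.55% of loci were. They were Jdp2 (4.83 to 18.8 FPKM), which encodes a repressor of AP-1 that pairs with Jun, Atf3 (33.0 to 121 FPKM) and Nfe2l1 (105.2 to 241 FPKM), a small Maf partner. All 10 were above 0, where 58.2% of loci were, with a median log2 difference of 0.43 against 0.07 over all loci. The smallest of the 10 differences, 0.04, was less in size than the shift of -0.18 in the median of all loci under scaling to the same FPKM sum. None of the 10 was more than 2-fold lower with PMA in 427 cells, with PMA in the SP2bKD libraries or with EICD, where 4.67%, 5.69% and 0.524% of loci were.

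Upstream of the AP-1 genes, 19 of 19 genes for kinases of the ERK, JNK and p38 pathways and for promoter factors reached the minimum. The promoter factors included Srf, Elk1 and Creb1. Of these, 0 of 19 were past 2-fold in either direction with PMA in 427 cells, with PMA in the SP2bKD libraries or with EICD. Of all loci tested, 3.91% were higher and 4.67% lower with PMA in 427 cells, and 3.51% and 5.69% in the SP2bKD libraries. With EICD the shares were 3.55% and 0.524%. Few of 19 genes would be past 2-fold at such shares, so the 0 does not set this list apart. Srf, through which serum acts on the Fos promoter, had 28.3 and 36.3 FPKM in 427 cells with DMSO and PMA, and 17.4 and 25.0 in the GFP and EICD libraries. The medians of the list were -0.03, 0.09 and 0.07 in these comparisons. The mRNA levels say nothing of the activity of these kinases.

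Textbook target genes of AP-1, a list chosen with earlier results of these data known, were mostly higher with PMA. In 427 cells 14 of 16 were more than 2-fold higher, where 3.91% of all loci tested were, and none was lower, with a median log2 difference of 2.06. In the SP2bKD libraries 11 of 15 were, where 3.51% of loci were, with a median of 2.17. Some of them reached 1 FPKM only with PMA and so could not count as lower. Among these were Mmp3, Mmp10 and Mmp13 in 427 cells, and Mmp3, Mmp13 and Ccl2 in the SP2bKD libraries. Plaur, the urokinase receptor, went from 24.1 to 232 FPKM in 427 cells and from 13.3 to 117 in the SP2bKD libraries. The collagenase gene Mmp13 went from 0.402 to 7.35 FPKM and from 0.443 to 3.55 FPKM. The cell adhesion receptor Cd44 went from 77.9 to 327 FPKM and from 63.7 to 328 FPKM. With EICD, 3 of 14 were more than 2-fold higher, where 3.55% of loci were, and none was more than 2-fold lower, where 0.524% were, with a median of 0.22. The 3 were Mmp13 (0.301 to 2.39 FPKM), Vegfa, an angiogenic growth factor (20.2 to 80.5 FPKM), and the chemokine gene Ccl2 (4.26 to 9.30 FPKM). Mmp13 reached the minimum only in the EICD library and so could not count as lower. Plaur (25.6 and 28.0 FPKM) and Cd44 (126 and 129 FPKM) were nearly level between the sorted libraries. The cyclin gene Ccnd1 had a log2 difference of 2.04 with PMA in 427 cells and of -0.87 with EICD.

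By likeness of pattern, measured as the Euclidean distance of centred log2 values over the 6 libraries among 8097 loci that reach an FPKM of 10, Fos and Fosb were each other's nearest locus, at 0.74. The next were far off, Egr1 at 3.67 from Fos and Atf3 at 4.21 from Fosb. Egr1, another immediate-early gene, had 10.3, 8.63, 5.02 and 9.14 FPKM in the DMSO and PMA libraries and 88.8 and 171 FPKM in the sorted pair. The locus nearest to Junb was the immediate-early gene Ier2 (0.50), and to Maff it was Phlda1 (0.37). Zfp36, whose protein promotes decay of AU-rich mRNAs, was the second nearest locus to Jun (0.40), after NXPE3 (0.33). Fosl1 was nearest to Hcar2 (0.96) and to the cytokine gene Il1a (1.04). The nearest loci of Fosl2, Jund and Mafk were Cbr2 (0.23), Mreg (0.22) and Gpr137b (0.25).

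The 3′ ends of the mRNAs were compared as well, a property that the choice of members did not use. ATTTA, the core of the AU-rich elements of short-lived mRNAs, occurred in the 3′ untranslated region of 9 of the 10 members and in 65.9% of 20549 coding genes (longest coding transcript, GENCODE M21). Its density was 4.91 per 1000 bases in Fos, 4.12 in Junb, 3.28 in Maff and 3.24 in Jun, and 0.466 in Fosb. The median density was 1.80 in the members and 1.27 in all genes. The longer element TTATTTATT occurred in 3 of the 10 members (Fos, Fosl2 and Maff) and in 7.72% of genes. Set beside the promoters printed above, Fos and Fosb, each the other's nearest locus by pattern, both carry TGACG before the start site. Their ATTTA densities were 4.91 and 0.466 per 1000 bases. TGACG occurs in 20.8% of all promoter windows, and whether either element bears on their pattern was not tested.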

How the data were processed

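RNA was prepared with a TruSeq RNA kit, and the authors deposited 1 FPKM value per locus and library, from Cufflinks and Cuffdiff 2.1.1 on GRCm38. The submitters' processing notes also list TopHat2 2.1.1 and STAR 2.4.0b. Cuffdiff shares reads among assembled isoforms, and overlapping loci can take each other's reads. Counts were not analysed here.

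Groups came from the sample labels. Python 3.11.15 (SciPy 1.17.1, pandas 2.3.3, NumPy 2.4.6 and matplotlib 3.10.9) was used, and log2 differences were taken after adding 0.01 to both FPKM. The calculation was tested on simulated data. A call was more than 2-fold where the larger value was at least 1 FPKM. Fragments per gene are upper estimates, from FPKM, the longest GENCODE M21 transcript and a depth read from single-transcript genes of over 2500 bases.

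Named are the 10 members, the genes of the other lists past 2-fold (up to 8 per list and comparison, in part given as counts), and the 2 loci nearest to each member. Other genes named as examples (Srf, Cd44, Plaur and Ccnd1 with EICD, the overlapping loci) were chosen after their values were seen. 1 single-gene result under this rule is not reported here. The members and lists were chosen with earlier results of these data known. Alternatives were another amount added, other minimum values, other scalings, FPKM summed over a symbol and the depth of each library alone.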

Additional observations from a re-analysis of the deposited data

Results flagged for a closer look

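With FPKM as deposited, the PMA difference had opposite signs in the 2 lines for Fosl2 and for Jun. The log2 difference in 427 cells minus that in the libraries labelled SP2bKD was 0.25 for Fosl2 (0.12 against -0.14) and 0.052 for Jun (0.01 against -0.04). Neither difference was tested, because each line has 1 library per treatment, and the counting intervals of Jun include 0 in both lines (-0.10 to 0.12 and -0.15 to 0.07). The signs were the same in both lines under 2 other scalings. With the median log2 ratio set to 0 the PMA difference was 0.22 and 0.0013 for Fosl2 and 0.12 and 0.10 for Jun, and with each library scaled to the same FPKM sum it was -0.13 and -0.11 for Fosl2 and -0.24 and -0.01 for Jun.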

How the results depend on the processing

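No paired analysis was possible because each condition had 1 library, and no difference has a replicate check. Of 62 log2 differences of members, 42 kept 1 sign under every alternative that gave a value. Of the recomputed values, 545 moved by no more than the counting error and 71 by more. The 545 include alternatives that cannot move a log2 difference. These are the other minimum FPKM values, which only choose loci, and FPKM summed over a symbol, since each member had 1 locus. Such values say nothing on how stable the differences are. With a minimum FPKM of 10, the members more than 2-fold higher with PMA numbered 3 in 427 and 3 in the SP2bKD libraries, and the counts lower in the SP2bKD libraries (DMSO and PMA) and for the difference of the PMA effects were 0, 0 and 0, because Fos, Fosb or Fosl1 no longer reached the minimum. With 1 added to both libraries these last 3 counts were also 0, and 3 members were higher with PMA in the SP2bKD libraries. Scaling to a sum of 1000000, which brings FPKM down while the minimum stays at 1, gave 2 higher with PMA in 427, 3 in the SP2bKD libraries, 1 higher and 0 lower between the lines with DMSO and likewise with PMA, and 0 for the difference. With no minimum FPKM, Batf3 entered, and the counts higher in the SP2bKD libraries (DMSO and PMA), with EICD, and lower for the difference were 1 each. At 1.5-fold there were 1 lower with PMA in 427, 3 and 5 lower in the SP2bKD libraries with DMSO and PMA, 6 higher with EICD (2 when each library was also scaled to a sum of 1000000), and 3 higher and 1 lower for the difference. The other member counts stayed within 1.5 times. The counts of this paragraph stand without the share of all loci at the same setting, so they show only how the member counts moved. The depth limits Fos and Fosb with DMSO, and Batf3 throughout.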
